A study of Homo sapiens with 12 samples.

Results

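NRF2, the transcription factor encoded by NFE2L2, and the antioxidant genes it is known to control were followed across 4 concentrations of 3-methylcholanthrene. The genes were fixed by name: NFE2L2, its inhibitor KEAP1, and the targets NQO1, HMOX1, GCLM, GCLC, TXNRD1, TXN and SRXN1. All 9 have an entry among the 50006 rows of the gene count table, and all 9 passed the filter on low counts that kept 12030 genes. The cells were TK6, an established human line of B lymphoblasts much used in genotoxicity tests, here labelled TK6 (IVGT) and grown in suspension. Control cells received 0 µg/mL, and the low, medium and high groups received 0.0004, 0.04 and 4 µg/mL of 3-methylcholanthrene, each for 24 h. Each group held 3 libraries of polyadenylated RNA, so 12 in all, and all groups share the single cell line and the single time point. Whether replicates were separate cultures is not stated in the labels. A p-value here therefore sets a difference between groups only against the spread of these libraries, and that spread may be technical.

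In resting cells KEAP1 hands NRF2 to a CUL3 ubiquitin ligase, and the factor is degraded. Electrophiles and oxidants that modify cysteines of KEAP1 slow this, and NRF2 then binds antioxidant response elements together with a small MAF protein. NRF2 is thus controlled largely through the stability of the protein, which transcript counts do not measure. 3-Methylcholanthrene is a polycyclic aromatic hydrocarbon that binds the aryl hydrocarbon receptor (AHR) and that cytochrome P450 enzymes can convert to electrophiles. NQO1 is a known target of both AHR and NRF2. The comparisons below ask whether these transcripts changed with concentration.

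The stretches just upstream of annotated starts are printed for 4 of these genes. They were read from RefSeq promoter windows of build GRCh38.p14, which held 11 windows of 300 bases (250 before and 50 after a start) for 8 of the 9 genes; HMOX1 had no window. Each line gives the 150 bases before the start, 5′ to 3′ on the gene's strand, and capitals mark matches to the core of the antioxidant response element, TGACNNNGC, on either strand. The GCLM stretch lies at chr1:93909431-93909580, the TXNRD1 stretch at chr12:104286882-104287031, the KEAP1 stretch at chr19:10502772-10502921 and the NQO1 stretch at chr16:69726561-69726710. All lie on the minus strand except that of TXNRD1.
GCLM: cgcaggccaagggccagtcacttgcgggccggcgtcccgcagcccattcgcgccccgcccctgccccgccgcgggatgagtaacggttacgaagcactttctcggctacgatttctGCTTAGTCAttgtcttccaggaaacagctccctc
TXNRD1: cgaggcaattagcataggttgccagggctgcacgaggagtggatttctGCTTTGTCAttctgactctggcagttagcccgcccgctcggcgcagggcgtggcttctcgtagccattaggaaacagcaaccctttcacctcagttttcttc
KEAP1: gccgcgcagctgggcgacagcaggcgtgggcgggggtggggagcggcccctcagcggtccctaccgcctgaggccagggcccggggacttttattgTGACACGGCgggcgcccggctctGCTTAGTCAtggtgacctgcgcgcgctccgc
NQO1: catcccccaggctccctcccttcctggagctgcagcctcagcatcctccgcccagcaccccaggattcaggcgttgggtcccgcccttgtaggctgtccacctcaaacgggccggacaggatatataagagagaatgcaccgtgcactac

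GCLM and KEAP1 carry the same 9 letters, which read TGACTAAGC on the other strand, and begin 34 and 31 bases upstream of their starts. KEAP1 has another match 54 bases upstream, and the match in TXNRD1 begins 102 bases upstream. The KEAP1 and TXNRD1 stretches belong to downstream alternative starts: the other KEAP1 window held no match, while the other TXNRD1 window held 2, which are not shown. No NQO1, NFE2L2, GCLC, TXN or SRXN1 window held the core, which says only that these letters are not in that window. The core was found in 4 of the 11 windows, against 13.3% of all 35116 windows of the table. The core can overlap the AP-1 site TGANTCA, but none of the 6 matches begins with that site. GCGTG, the core of the element bound by AHR, occurred on either strand in 9 of the 11 windows and in 36.5% of all windows. The windows were not matched for base composition, and some of the 11 belong to the same gene, so these shares show no enrichment. A match is a description of the sequence and not of binding.

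Library totals ran from 9163368 to 19841387 counts, and all 9 genes had at least 56 counts in every library, far above the 3 counts used as a floor for detection. All 8 B-cell markers were measured, among them MS4A1 at 203 to 288 CPM (counts scaled to a common library total). The erythroid markers, CD3G, CD8A, EPCAM, COL1A2 and DCN had 0 counts throughout, and the most abundant of the remaining markers of other cell types, NKG7, reached 7.02 CPM. Summed markers of T and NK cells ran from 4.65 to 7.55 CPM in the controls against 3.66 to 7.26 CPM at the high concentration. The stromal sum, which came from COL1A1 alone, was 2.198 to 3.82 CPM in medium against 4.41 to 5.29 CPM in high. These 2 ranges did not overlap, and the share of all genes that did not overlap between these groups was not computed. Control (3.69 to 4.43 CPM) overlapped both, and the low libraries spanned 2.22 to 6.07 CPM. The part of this sum in the results was not tested. Non-coding RNAs moved strongly between libraries: mitochondrial 16S ribosomal RNA took 1.43% to 7.99% of counts and 7SK RNA, which has no poly(A) tail, 4.89 to 90.0 CPM. Low replicate 3 and high replicate 3 were highest in both.

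Levels can be compared between genes only per length, here as CPM per kilobase of exon over the 12 libraries (mean ± SD). TXN, the small redox protein thioredoxin, was the most abundant at 175 ± 45.4. Its reductase TXNRD1 followed at 71.2 ± 6.40, the quinone reductase NQO1 at 58.6 ± 11.6, KEAP1 at 56.7 ± 9.09, the sulfiredoxin SRXN1 at 46.6 ± 6.04 and NFE2L2 at 30.7 ± 7.43. GCLM, the modifier subunit of the enzyme that limits glutathione synthesis, stood at 12.9 ± 0.714. HMOX1, which degrades haem, and GCLC, the catalytic partner of GCLM, were lowest at 6.73 ± 1.64 and 6.48 ± 0.757. Among neighbours in this order only TXN and TXNRD1, NFE2L2 and GCLM, and GCLM and HMOX1 had ranges that did not overlap. The ranges of TXNRD1 and NQO1, NQO1 and KEAP1, KEAP1 and SRXN1, SRXN1 and NFE2L2, and HMOX1 and GCLC overlapped across libraries. Within every single library, however, KEAP1 stood above SRXN1 and SRXN1 above NFE2L2. The other overlapping pairs changed order between libraries. Exon length pools all annotated isoforms, so a gene with many of them, such as TXNRD1, is scaled by more than the length of 1 transcript.

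**Figure D1:**
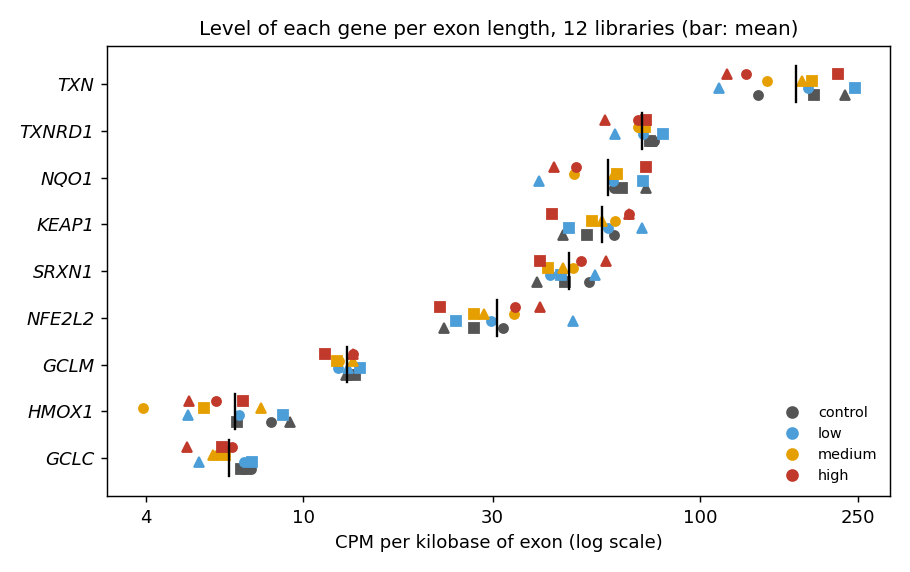
Level of each gene per kilobase of exon (x axis, log scale, CPM per kilobase) in the 12 libraries, coloured by group, with shapes for replicate numbers (circle 1, square 2, triangle 3) and a bar at the mean. TXN lies between 111 and 246 in every library, above all libraries of the other genes, while HMOX1 and GCLC share the lowest range.

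None of the exons of 8 of the 9 genes overlapped an exon of another gene in the table. Only SRXN1 did, over 225 of its 2528 exon bases (8.90%) with LOC107985423 on the opposite strand. How the counting used strand is not given in the sources used here, so reads from that stretch cannot be assigned to either gene with certainty. No member had a second entry for an alternate locus.

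NFE2L2 (chromosome 2, 177230303 to 177264727, minus strand, GRCh38.p14), the gene of NRF2 itself, measured 102, 85.6 and 71.8 CPM in control replicates 1 to 3. It measured 94.4, 77.2 and 152 CPM in low, 108 (108.1), 85.3 and 90.7 CPM in medium, and 108.5, 70.2 and 125 CPM in high. Its highest value (low replicate 3) and its lowest (high replicate 2) both came from treated cells, and every treated group overlapped control. Against control, the low, medium and high groups differed by log2 0.37 ± 0.26, 0.17 ± 0.26 and 0.29 ± 0.26 (SE, edgeR adjusted p = 0.911, 0.998 and 0.810). Without low replicate 3 the low value was 0.017.

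KEAP1 (chromosome 19, 10486125 to 10503356, minus strand), the adaptor that marks NRF2 for degradation, measured 160.3, 137 and 119 CPM in control and 155, 124 and 188 CPM in low. In medium it stood at 161, 141 and 149 CPM, and in high at 175.2, 112 and 174.9 CPM. The libraries highest and lowest in KEAP1 were the same as for NFE2L2, and all groups overlapped. Its log2 differences from control were 0.21 ± 0.19 in low, 0.16 ± 0.19 in medium and 0.21 ± 0.19 in high (SE, edgeR adjusted p = 0.911, 0.998 and 0.810). Without single libraries KEAP1 ran from 0.03 (without low replicate 3) to 0.36 (without low replicate 2) in low and from 0.10 (without high replicate 3) to 0.39 (without high replicate 2) in high. Neither the factor nor its inhibitor passed the test at any concentration.

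NQO1 (chromosome 16, 69709401 to 69726560, minus strand), which reduces quinones and is the usual readout of NRF2 activity, measured 153, 159.8 and 184 CPM in control. It measured 152, 181 and 98.9 CPM in low, 121, 156 and 153 CPM in medium, and 122, 184 and 108 CPM in high. Here low replicate 3 was the lowest of the 12 and high replicate 2 the highest, just above control replicate 3, the reverse of NFE2L2. All groups overlapped. The log2 differences were -0.17 ± 0.23 in low, -0.17 ± 0.23 in medium and -0.20 ± 0.23 in high (SE, edgeR adjusted p = 0.912, 0.998 and 0.811). The high level was 0.87 times control in this fit, with a 95% interval of 0.61 to 1.23 that covers only the spread of these libraries. With single libraries left out the high value ran from -0.48 (without high replicate 2) to -0.05 (without high replicate 3).

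HMOX1 (chromosome 22, 35381096 to 35394207, plus strand), haem oxygenase 1, was low throughout, with 56 to 217 counts per library. It stood at 12.9, 10.6 and 14.4 CPM in control, 10.7, 13.8 and 7.96 CPM in low, 6.11, 8.72 and 12.1 CPM in medium and 9.35, 10.9 and 7.99 CPM in high. Its group means were all below that of control, but each treated group overlapped the control range. HMOX1 had the most negative differences of the 9 genes in medium and high, at -0.45 ± 0.27 and -0.36 ± 0.27 (log2, SE), and neither passed (edgeR adjusted p = 0.998 and 0.810). The medium value ran from -0.74 without medium replicate 3 to -0.24 without medium replicate 1, and the high value from -0.50 without high replicate 2 to -0.23 without control replicate 3.

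**Figure D2:**
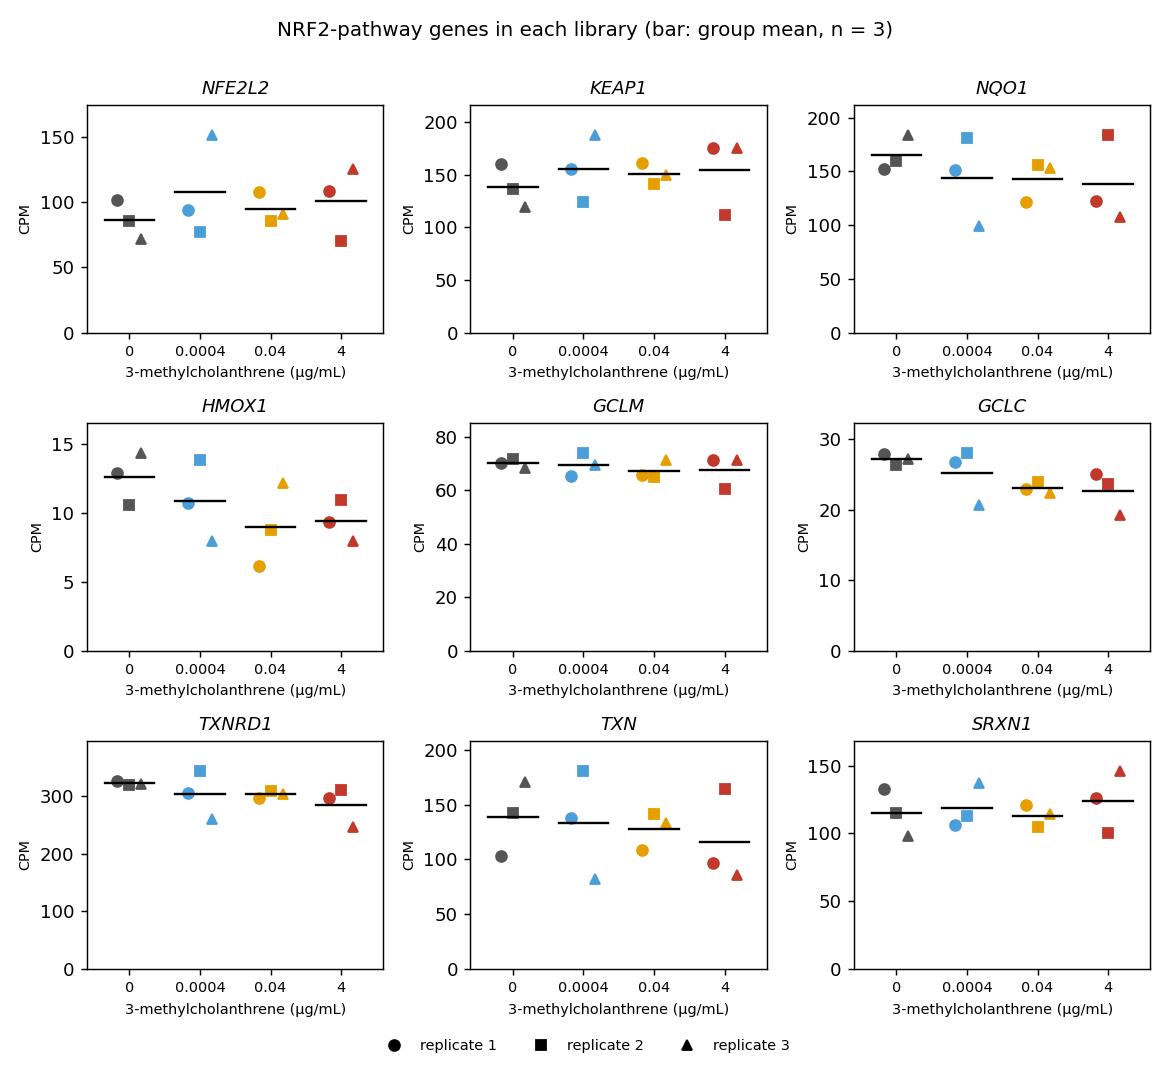
Level of each of the 9 genes (y axis, CPM from 0) in every library against concentration of 3-methylcholanthrene (x axis, µg/mL), with shapes for replicate numbers and a bar at the mean of 3. Every treated group overlaps control for 7 of the 9 genes. GCLC and TXNRD1 in medium and high lie below all 3 controls in CPM. So do 8.3% of all tested genes in medium and 8.28% in high. With CPM scaled by TMM factors TXNRD1 in high overlaps control.

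The subunits of glutamate-cysteine ligase did not vary together over the libraries (r = 0.10 between GCLM and GCLC, 12 libraries). GCLM (chromosome 1, 93885199 to 93909430, minus strand) stayed between 60.6 and 74.1 CPM in all 12 libraries, and its 3 control values were 70.1, 71.9 and 68.4 CPM. Its log2 differences from control were 0.03 ± 0.09 in low, -0.02 ± 0.09 in medium and 0.0057 ± 0.092 in high (SE, edgeR adjusted p = 0.960, 0.998 and 0.986), and the 95% interval in high ran from -0.20 to 0.21. Between libraries of a group, GCLM had a residual SD of 0.0895 on the log2(CPM + 1) scale, and only 10.8% of 2073 genes at a like level (within 0.5 log2) had a smaller one.

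GCLC (chromosome 6, 53497341 to 53545101, minus strand) measured 27.9, 26.4 and 27.2 CPM in control and 26.8, 28.1 and 20.7 CPM in low. All 3 medium libraries, at 22.9, 23.9 and 22.4 CPM, and all 3 high libraries, at 25.0, 23.6 and 19.3 CPM, lay below the lowest control. Low overlapped control, since 2 of its 3 libraries stood within or above the control range. The log2 differences were -0.07 ± 0.13 in low, -0.20 ± 0.13 in medium and -0.21 ± 0.12 in high (SE, edgeR adjusted p = 0.922, 0.998 and 0.810). Its slope was -0.07 ± 0.04 log2 per step of concentration (unadjusted p = 0.0630, edgeR adjusted p = 0.854), the smallest p-value of the 9 genes in that trend.

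TXNRD1 (chromosome 12, 104215779 to 104350307, plus strand), which recharges thioredoxin with electrons from NADPH, had close controls at 325.6, 319 and 322 CPM. It measured 306, 344 and 259 CPM in low, 297, 309 and 304 CPM in medium and 297, 311 and 246 CPM in high. In CPM medium and high lay below all controls, and low lay on both sides of them. With CPM scaled by TMM factors, as in the fit, medium lay below all controls but high did not. The log2 differences in the fit were -0.05 ± 0.11 in medium and -0.12 ± 0.11 in high (SE, edgeR adjusted p = 0.998 and 0.810).

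TXN (chromosome 9, 110243810 to 110256507, minus strand) varied most between libraries of the same group, at 103, 143 and 170.5 CPM in control. It measured 138, 181 and 82.1 CPM in low, 109, 141 and 133 CPM in medium and 96.5, 164.5 and 85.9 CPM in high. Its log2 difference in high was -0.21 ± 0.30 (SE, edgeR adjusted p = 0.831), and without control replicate 3 it was -0.0059. Its residual SD of 0.43 on the log2(CPM + 1) scale was larger than that of 94.3% of 1356 genes at a like level.

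SRXN1 (chromosome 20, 646615 to 653200, minus strand), which repairs over-oxidised peroxiredoxins, measured 133, 115 and 98.3 CPM in control and 106, 113 and 137 CPM in low. In medium it stood at 121, 104 and 114 CPM and in high at 126, 99.9 and 146 CPM. The groups overlapped, and the log2 difference in high was 0.17 ± 0.16 (SE, edgeR adjusted p = 0.810).

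Across all comparisons 0 of the 9 genes were called by edgeR's quasi-likelihood test at an adjusted p below 0.05, and 0 had an unadjusted p under 0.05. This held for low, medium and high against control, medium and high against low, high against medium, the trend and the test of any difference. DESeq2 and limma voom called 0 of the 9 as well. The background was the same: edgeR called 0 of 12030 genes in each of these comparisons (0%), while 1.62% to 3.12% of genes had an unadjusted p under 0.05. DESeq2 called 1 to 16 genes per comparison and voom at most 1, and 0 of these were members. In high, 4 of the 9 genes lay above control and 5 below, with a median log2 difference of -0.12, against a median of 0.0036 over all tested genes. In medium 3 lay above (median -0.05, against -0.0017 over all genes) and in low 4 (median -0.03, against 0.0075). The other high values also moved by over 1.5 times without 1 high library. Without replicate 3 NFE2L2 was 0.10, GCLC -0.11, TXNRD1 -0.03 and SRXN1 0.03. Without replicate 2 NFE2L2 was 0.49, TXNRD1 -0.21, TXN -0.57 and SRXN1 0.29. Between treated groups the member medians were -0.06 for medium against low, -0.07 for high against low and 0.03 for high against medium.

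**Figure D3:**
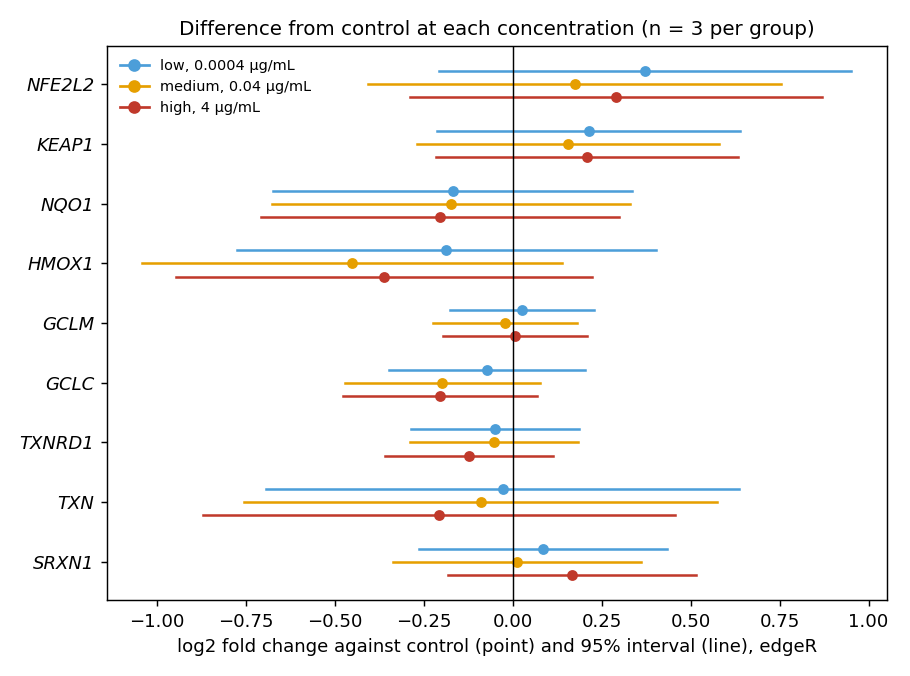
Log2 fold change of each gene against control (x axis, point) with its 95% interval (line) for low, medium and high, from the edgeR fit of all 12 libraries. Every interval includes 0, and those of GCLM, GCLC and TXNRD1 are narrower than those of NFE2L2, HMOX1 and TXN.

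GCLC and TXNRD1 were the 2 of 9 genes whose medium libraries all lay below the controls in CPM, and again the 2 of 9 in high. Over all genes tested 8.3% lay wholly below control in medium and 8.28% in high. Wholly above control lay 3.26% of genes in medium and 1.85% in high, and 0 of the 9 members. In low 0 members stood apart in either direction, against 4.99% of genes below and 2.34% above. With CPM scaled by TMM factors, a scale added after seeing the data, both genes stood below control in medium (5.55% of genes did) but only GCLC in high (3.85% of genes). Medium and high were set against the same 3 controls, so these 2 counts are not independent. GCLC and TXNRD1 also varied together over the 12 libraries (r = 0.91), so the 2 genes are not independent of each other either.

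Over the 12 libraries 6 of the 9 genes fell into opposed sets. NFE2L2, KEAP1 and SRXN1 were high in the same libraries, and NQO1, TXN and TXNRD1 were high where those were low. On the log2(CPM + 1) scale Pearson's r was 0.95 between NFE2L2 and KEAP1, 0.87 between NFE2L2 and SRXN1 and 0.94 between NQO1 and TXN. It was -0.97 between NFE2L2 and NQO1 and -0.95 between NFE2L2 and TXN. TXNRD1 was less opposed, with r of -0.80 to NFE2L2, -0.70 to KEAP1 and -0.67 to SRXN1. Its closest member was GCLC (r = 0.91), which lies outside these sets. Of the 36 pairs of members, 6 had an r above 0.8 and 7 an r below -0.8, a threshold chosen after the values were seen. The points are 12 libraries that share their depth, preparation and scaling for every gene, so r is given as a description. With each group's mean removed, r was -0.99 between NFE2L2 and NQO1, -0.99 between NFE2L2 and TXN and 0.96 between NFE2L2 and KEAP1.

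The same order of libraries was that of mitochondrial 16S ribosomal RNA. Pearson's r with log2 16S CPM over the 12 libraries was 0.97 for NFE2L2, 0.97 for KEAP1 and 0.85 for SRXN1 (Spearman's rho 0.99, 0.99 and 0.88). It was -0.97 for NQO1, -0.97 for TXN and -0.82 for TXNRD1 (rho -0.98, -0.96 and -0.79). Without low replicate 3 and high replicate 3, the 2 libraries farthest from the median in 16S, these r were 0.98, 0.98, 0.73, -0.95, -0.95 and -0.67. With group means removed they were 0.98, 0.98, 0.88, -0.96, -0.99 and -0.81, so the relation was of like size among libraries given the same concentration. HMOX1 and GCLC had r of -0.70 and -0.66, and that of GCLC was -0.30 without those 2 libraries. GCLM had an r of 0.20. With TMM-scaled levels all 9 kept their sign. The relation was not particular to these genes: 15.2% of the 12030 tested genes had an r above 0.8 with 16S and 15.7% one below -0.8, against 3 and 3 of the 9. Library totals had weaker relations to NFE2L2 (r = -0.44) and NQO1 (r = 0.31) over the 12 libraries. With group means removed, r with totals was -0.69 for NFE2L2, -0.70 for KEAP1, -0.86 for SRXN1, 0.67 for NQO1 and 0.67 for TXN. It was 0.48 for TXNRD1, 0.47 for HMOX1, 0.40 for GCLC and -0.63 for GCLM, whose r with 16S was then 0.33. The part of depth was not tested. 7SK RNA followed 16S across libraries (r = 0.98), and NQO1 had an r of -0.97 with it.

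**Figure D4:**
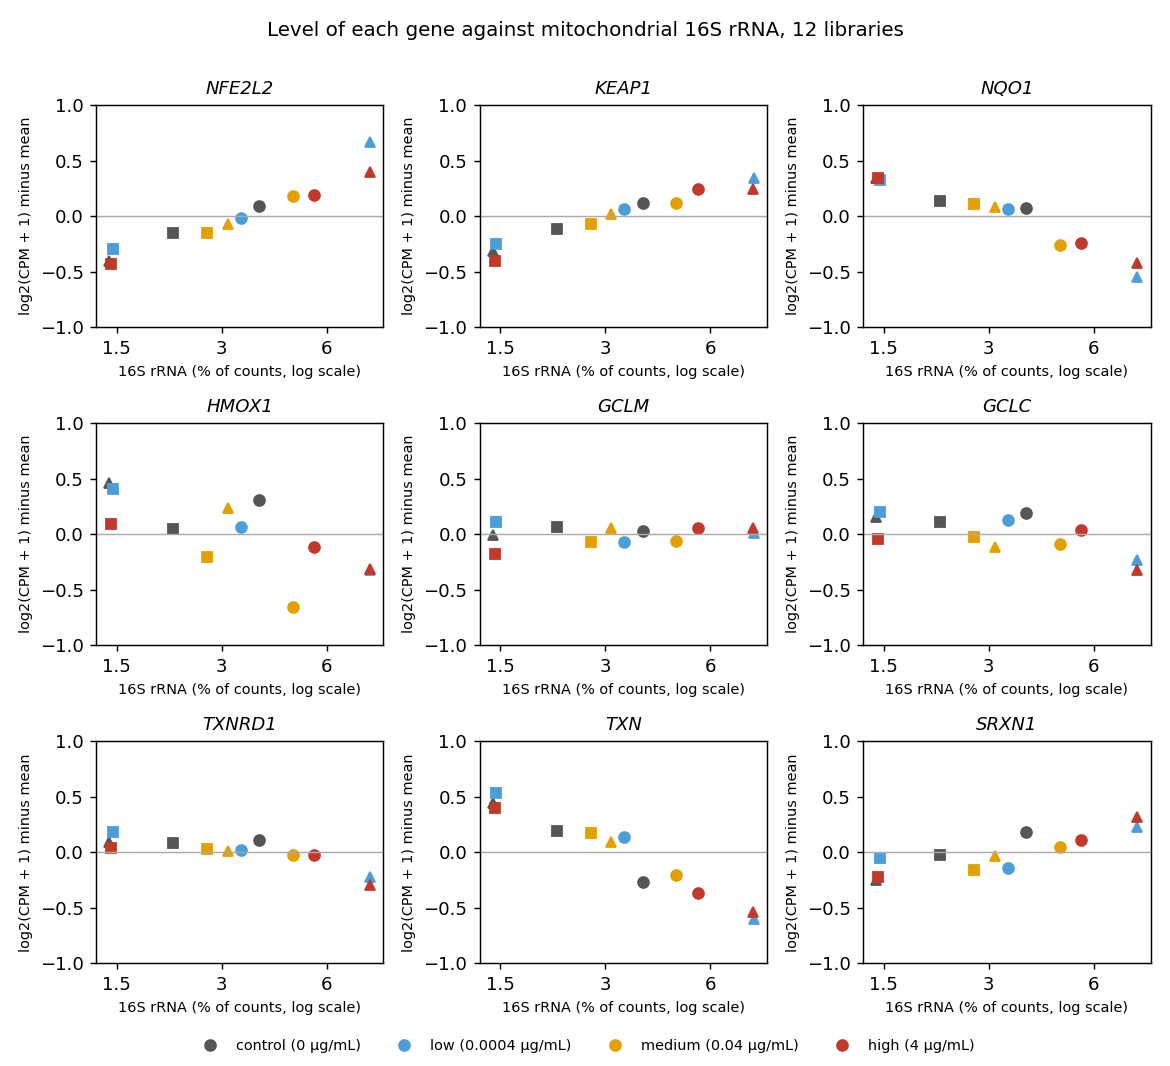
Level of each gene as log2(CPM + 1) minus its mean (y axis) against the share of counts taken by mitochondrial 16S ribosomal RNA (x axis, percent, log scale), 1 point per library, coloured by group, with circles, squares and triangles for replicates 1, 2 and 3. NFE2L2, KEAP1 and SRXN1 rise from 1.43% to 7.99% of 16S while NQO1, TXN and TXNRD1 fall, and libraries of all 4 groups lie along the same path.

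The share of 16S RNA overlapped between control (1.43% to 3.84%) and every treated group, but 2 of the 3 high libraries (5.51% and 7.96%), 1 low and 1 medium library lay above all 3 controls. With log2 16S as a covariate, an alternative chosen once the data were known, 0 of the 9 genes were called. In high 8 of the 9 differences were nearer to 0, with GCLM, at -0.02, the exception. In low 8 of the 9 were nearer to 0 and in medium 6. TXN moved away from 0 in both, from -0.03 to 0.19 in low and from -0.09 to 0.19 in medium, with an unadjusted p of 0.0133 and 0.0138 (edgeR adjusted p = 0.902 and 1). SRXN1 and GCLM moved away in medium, to -0.10 and -0.04. In high the value of NFE2L2 was -0.04 in place of 0.29, KEAP1 -0.03 in place of 0.21, NQO1 0.01 in place of -0.20 and SRXN1 0.0054 in place of 0.17. GCLC moved from -0.21 to -0.13, HMOX1 from -0.36 to -0.18, TXNRD1 from -0.12 to -0.04, and TXN from -0.21 to 0.10. The part of RNA quality or of library preparation in these differences was not tested.

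Of the genes around these members, 66 were listed in 7 groups and 53 were tested. In high 17 lay above control and 36 below, with a median log2 difference of -0.08, and 0 were called (edgeR, 0% of all genes). Of all tested genes 50.6% lay above control, with a median of 0.0036. Of the 53, 20 fell with 16S RNA across libraries (r below -0.8), and 16S was above all controls in 2 of the 3 high libraries; its part in the count was not tested. The NRF2 regulators were split, with 6 of 10 above control (median 0.06). They include NFE2L1, a related factor, whose control libraries averaged 232 ± 10.7 CPM and high libraries 204 ± 15.5 CPM (SD, n = 3), a log2 difference of -0.13 ± 0.08 (SE, edgeR adjusted p = 0.810). SQSTM1, which binds KEAP1 in autophagy, averaged 1.95 ± 0.879 CPM in the controls and, with rising concentration, 19.9 ± 30.6, 23.6 ± 3.79 and 7.90 ± 9.54 CPM (SD, n = 3). SQSTM1 differed from control by log2 3.44 in low, 3.65 in medium and 2.14 ± 1.26 in high (SE and edgeR adjusted p = 0.810 for high). However, it has a second entry for an alternate locus, so its level is uncertain. The small MAF gene MAFG, named after its values were seen, ran from 53.4 to 140.0 CPM over the libraries.

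Glutathione and cystine genes had 3 of 8 above control in high (median -0.07). GSS, the second enzyme of glutathione synthesis, had means of 82.5 ± 0.859 (control) and 74.4 ± 3.87 CPM (high), and GSR, which reduces glutathione disulfide, of 99.6 ± 8.73 and 77.1 ± 27.3 CPM (SD, n = 3). Their log2 differences were -0.09 ± 0.09 and -0.31 ± 0.31 (SE, edgeR adjusted p = 0.810 each). SLC7A11, the cystine carrier and a widely used NRF2 target, stood at 11.7 to 17.1 CPM in all libraries; it was named after its values were seen. Of the thioredoxin and peroxiredoxin genes 3 of 10 lay above (median -0.14). The 2 smallest p-values were those of PRDX4, the peroxiredoxin of the endoplasmic reticulum, at 0.26 ± 0.12, and TXNRD2, the mitochondrial thioredoxin reductase, at -0.34 ± 0.16 (SE, edgeR adjusted p = 0.810 each).

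The genes that supply NADPH had 2 of 7 above control (median -0.07), with PGD at -0.25 ± 0.16. Haem and iron genes had 2 of 5 above (median -0.27), with the biliverdin reductase BLVRA at 0.32 ± 0.23 and ferrochelatase, FECH, at -0.30 ± 0.27. Detoxification genes had 1 of 9 above (median -0.16): OSGIN1, at 0.67 ± 0.41 and only 1.46 to 4.51 CPM, while the aldose reductase AKR1B1 differed by -0.39 ± 0.40. All 4 other antioxidant enzymes lay below control (median -0.10), and all 4 also had an r below -0.8 with 16S over the libraries, among them SOD2 at -0.34 ± 0.28 and CAT, catalase, at -0.13 ± 0.15 (log2, SE, edgeR adjusted p = 0.810 for all but CAT, at 0.811). Of the listed genes 6 had 0 counts in all libraries: GPX7, HMOX2, FTH1, SLC40A1, AKR1B10 and CBR1. FTH1 encodes a ferritin chain of nearly all cells, so a count of 0 here does not show absence. HMOX2 has a second entry for an alternate locus, as SQSTM1 does, so its count of 0 does not show absence either. Whether the counts of 0 for GPX7, SLC40A1, AKR1B10 and CBR1 show absence was not tested.

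**Figure D5:**
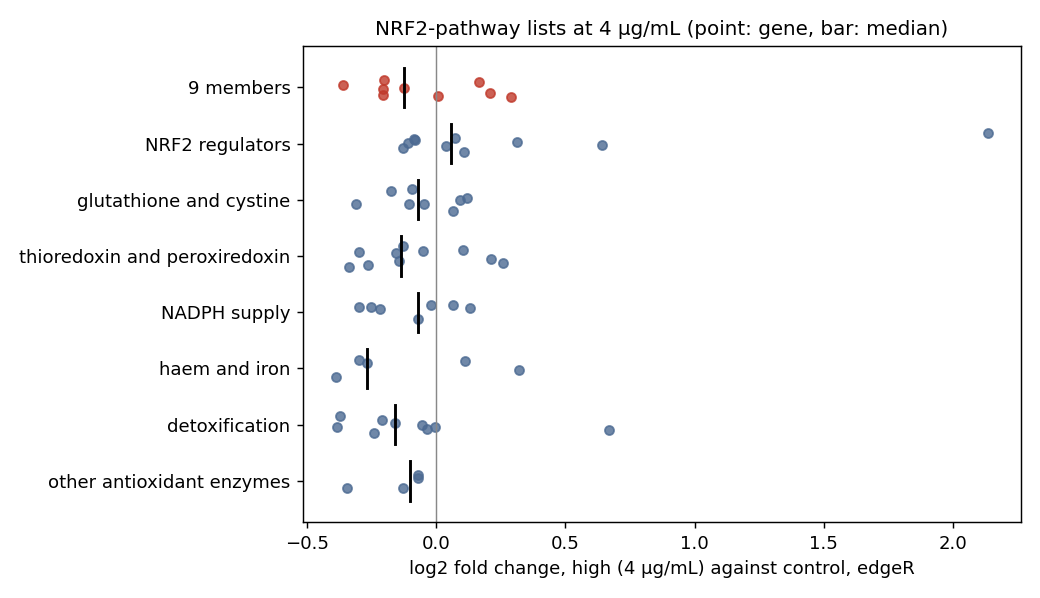
Log2 fold change in high against control (x axis) of the 9 members and of the tested genes of 7 lists, 1 point per gene, with a bar at each median. All medians but that of the regulators lie below 0, from -0.27 to -0.07, and the point at 2.14 is SQSTM1, whose level is uncertain.

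In medium and low 0 of the 53 listed genes were called either. Unadjusted p (edgeR) was under 0.05 for 2 regulators in low, beside 2.82% of all tested genes. In medium it was for 1 regulator and 1 thioredoxin or peroxiredoxin gene, beside 1.98% of all tested genes. The detoxification list had 2 of 9 above control in medium (median -0.18) and 3 of 9 in low (median -0.05), and the other antioxidant enzymes 0 of 4 and 1 of 4 (medians -0.14 and -0.14). The regulators had 6 of 10 above control at both concentrations (medians 0.04 and 0.11), and the glutathione and cystine genes 5 of 8 (medians 0.04 and 0.01). Haem and iron genes had 3 of 5 above in medium (median 0.04) and 2 of 5 in low (median -0.03). The thioredoxin and peroxiredoxin genes had 4 of 10 and 5 of 10 (medians -0.07 and -0.01), and the NADPH genes 2 of 7 and 1 of 7 (medians -0.05 and -0.06).

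Many of these genes followed the same order of libraries. Of the 53 tested, 20 (37.7%) had an r below -0.8 with 16S and 5 (9.43%) one above 0.8, beside 15.7% and 15.2% of all tested genes. PRDX1, a peroxiredoxin and NRF2 target that, like FTL, was named after its values were seen, had an r of -0.99 and ran from 134 to 285 CPM. FTL, the ferritin light chain, had -0.97 and ran from 532 to 1804 CPM, and AKR1B1 had -0.97. The members and the listed genes were measured in the same 12 libraries.

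The genes most like each member over the 12 libraries, by Pearson's r of log2(CPM + 1), were NUP62 for NFE2L2 (0.99), UBE3A for KEAP1 (0.99), EIF4E for NQO1 (0.99), PPIA for TXN (0.99), FAT1 for TXNRD1 (0.98) and PON2 for SRXN1 (0.96). For HMOX1, GCLC and GCLM they were CREBL2 (0.95), EOGT (0.95) and MTFR1 (0.88). Such likeness was common for NQO1, with 946 of the 12029 other tested genes at an r above 0.9, and for NFE2L2, with 731. It was rare for GCLC, with 13, and HMOX1, with 3, and no gene reached it for GCLM.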

How the data were processed

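Per the labels' protocols, total RNA was isolated with an RNeasy kit, captured as mRNA and sequenced in paired reads of 150 nt. Build GRCh38.p14, HISAT2 2.2.1 and featureCounts 2.0.6 are listed in the submitters' processing notes, with fastp 0.23.4 and MultiQC 1.27. How strand and multiply aligned reads were handled is not given in the sources used here. Deposited by the authors were raw counts per gene and, per library, CPM, which matched count over library total within 5e-05. Of the counts from 1 to 10, 68.7% were even. Libraries of 1 group differed by 8.31 to 150.2 chi-square per degree of freedom, so none was a duplicate of another in its group. Pairs from different groups were not compared.

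Counts of all 12 libraries were filtered (filterByExpr), scaled (TMM) and fitted in 1 model with edgeR 4.0.16 in R 4.3.3 (glmQLFit, glmQLFTest), with Benjamini-Hochberg adjustment over all 12030 genes and calls below 0.05. Standard errors are the log2 fold change over the root of F. The functions were tested on simulated data. Correlations used log2(CPM + 1). DESeq2 1.42.0, limma 3.58.1 voom, other factors and filters, a replicate block, pairs of groups alone and each library left out were the alternatives.

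Members and lists were chosen with earlier results of these data known. Named are the members, per list the 2 genes with the smallest p in high, and the gene most like each member; others are marked. One gene that the rule names is not reported here.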

Additional observations from a re-analysis of the deposited data

How the results depend on the processing

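0 of the 9 genes were called under each alternative in the comparisons it covered, which were all 8 except for pairs of groups alone, run for the 6 comparisons of 2 groups. Unadjusted edgeR p was under 0.05 for 2 members in high without high replicate 2 (smallest adjusted p = 0.267). In the trend 1 passed that mark with the replicate block, no composition factor, or without low replicate 3, high replicate 1 or high replicate 2. So did 1 in low without low replicate 2 and 1 in medium without medium replicate 3. Without low and high replicates 3, 1 did in medium and medium against low. With the 16S covariate TXN did in low, medium and any difference. The replicate block left all 27 differences from control on their side of 0, with 0 members called; the labels do not tie the numbers to a culture or day, and deviations of same-numbered libraries had correlations from -0.42 to 0.63. DESeq2, DESeq2 size factors, no count filter and pairs of groups alone also turned none. Turned values were all uncalled, and where no value shows it the cause was not tested. With no composition factor GCLM in low and high was -0.0126 and -0.0504 and SRXN1 in medium -0.0277, and with voom GCLM in high was -0.00083. With the 16S covariate low TXNRD1, TXN and SRXN1 were 0.00601, 0.189 and -0.0245, medium NFE2L2, NQO1, TXNRD1, TXN and SRXN1 -0.0419, 0.0132, 0.0129, 0.188 and -0.0965, and high NFE2L2, KEAP1, NQO1, GCLM and TXN -0.0353, -0.0288, 0.0148, -0.0247 and 0.104. With a 7SK covariate, also added after seeing the data, low TXNRD1, TXN and SRXN1 were 0.00196, 0.161 and -0.0115, medium NFE2L2, TXNRD1, TXN and SRXN1 -0.016, 0.00505, 0.142 and -0.0775, and high GCLM and TXN -0.0183 and 0.0347. Without low and high replicates 3 together, likewise added, low NQO1, GCLC, TXNRD1, TXN and SRXN1 were 0.0281, 0.0368, 0.0347, 0.214 and -0.0514 and high GCLM -0.0418. With each library left out, low ran from -0.36 to 0.0275 for NQO1, -0.0119 to 0.0761 for GCLM, -0.148 to 0.0359 for GCLC, -0.142 to 0.0338 for TXNRD1, -0.299 to 0.214 for TXN and -0.0527 to 0.182 for SRXN1. Medium ran from -0.0748 to 0.0137 for GCLM, -0.276 to 0.114 for TXN and -0.0704 to 0.107 for SRXN1, and high from -0.0364 to 0.0691 for GCLM. Low replicate 3 alone turned NQO1, GCLC and TXNRD1 in low. HMOX1, with 56 to 217 counts per library, carries the most counting error of the 9; how the excess of even counts bears on the number of independent fragments was not tested. Floors cover counting error only.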
